A study of Mus musculus with 21 samples.

Results

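The cholesterol and fatty acid synthesis genes were 34 mouse genes chosen by name from the 48440 genes of the count table, by their known roles and not by a threshold on measured values, although earlier results of these data were known when the list was made. They comprised 4 regulators, 18 genes of the sterol branch and 12 genes of the fatty acid branch, and 34 of 34 passed the filter on low counts. Bulk RNA sequencing of ribosomal-RNA-depleted total RNA had been done in 3 mouse cell lines to ask what changes when Esrp2-as, a long noncoding RNA antisense to the splicing factor gene Esrp2, is raised or lowered. The groups were 3T3-L1 with Esrp2-as overexpression (n = 2) and 3T3-L1 with empty vector (n = 2), M27H4 with Esrp2-as overexpression (n = 3) and M27H4 with empty vector (n = 3), and M6 with Esrp2-as knockdown (n = 2) and M6 control (n = 2). 3T3-L1 is an established fibroblast-like line that can be turned into adipocytes, and here it was labelled as preadipocyte. M27H4 and M6 were labelled as lines from mammary tumours of C3(1)SV40 TAg mice, which carry simian virus 40 tumour antigens as a transgene. Per the labels' protocols the knockdown used locked nucleic acid gapmers, whereas the M6 controls were labelled as empty vector, so the reagent the M6 controls received is not given in the sources used here. All 6 groups shared the same growth medium with 10% foetal calf serum, which supplies lipoprotein cholesterol and fatty acids. The labels call the replicates biological without naming separate cultures, so p-values measure the spread between these samples.

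Mammalian cells build cholesterol from acetyl-CoA through the mevalonate pathway and a series of sterol intermediates, and they build fatty acids from acetyl-CoA through malonyl-CoA, chain elongation and desaturation. Both branches are controlled by the sterol regulatory element binding proteins (SREBPs), which the escort protein SCAP carries from the endoplasmic reticulum to the Golgi for cleavage when sterols are scarce, and which INSIG proteins hold back when sterols are plentiful. SREBP-2 acts mainly on sterol genes and SREBP-1c mainly on fatty acid genes, while SREBP-1a acts on both. In adipocytes and in the secretory mammary gland the fatty acid branch is strongly induced, and proliferating cells use both branches to make membrane.

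Reads in the deposited table ranged from 34892461 to 328493417 counts per replicate after technical replicates were summed. Levels are given as CPM, the counts scaled by the effective library size. The transcript annotated as 1810019D21Rik, for which RefSeq lists Esrp2-as as a synonym, was at 45.8 and 35.5 CPM in 3T3-L1 overexpression against 0.25 and 0.355 CPM in 3T3-L1 control, at 61.2, 65.9 and 15.9 CPM in M27H4 overexpression against 0.731, 1.25 and 0.889 CPM in M27H4 control, and at 0.527 and 0.851 CPM in M6 knockdown against 2.96 and 2.42 CPM in M6 control. The groups did not overlap in any of the 3 lines, although the M6 difference was not called over all genes (log2 fold change -1.92, edgeR adjusted p = 0.363). It overlaps Esrp2 on the other strand, and the counting strand is not given in the sources used here. The 5 epithelial marker genes summed to 15.3 to 21.4 CPM in 3T3-L1, 146 to 275 in M27H4 and 3049 to 4165 in M6. The 5 preadipocyte and fibroblast genes summed to 5662 to 7236 CPM in 3T3-L1, 771.5 to 1053 in M27H4 and 28.2 to 59.6 in M6. These 5 did not share an order. Pdgfra was higher in M27H4, at 673 to 929 CPM, than in 3T3-L1, at 224 to 329 CPM. Col1a1, Col1a2 and Col3a1 were at 0.584 to 43.1 CPM in M27H4 and 417 to 3756 CPM in 3T3-L1. Pdgfrb was at 39.6 to 57 CPM in M27H4 and 128 to 171 CPM in 3T3-L1. Of 7 adipocyte genes, Adipoq, Plin1, Cidec and Lep were under 0.1 CPM in every library, and the others were detected. Pparg was at 20.2 to 21.3 CPM in 3T3-L1 and 0.943 to 3.97 CPM in the other lines. Cebpa was at 14.9 to 34 CPM in M27H4 and 1.435 to 4.03 CPM in the other lines. Fabp4 was at 0.936 to 4.23 CPM over all libraries. Epithelial Epcam was low in M27H4 despite its mammary tumour origin, at 0.0488 to 0.139 CPM in both replicates 1, whose column code (a number following LR in the column names, of unstated meaning) no other line shared, and at 4.73 to 8.86 CPM in replicates 2 and 3, whose codes were shared with other lines. Likewise the fibroblast collagen gene Col1a2 was at 0.103 CPM of the column total in the M6 knockdown replicate 2 column with the M6-only code and 22.9 CPM in its column with a shared code, and at 0.165 against 14.9 and 24.1 CPM in the corresponding columns of M6 control replicate 2. Every 3T3-L1 column carried a code shared with other lines, so how far reads from other lines contribute to the 3T3-L1 values was not tested. For M27H4 against M6, a fit restricted to columns whose code held a single line is given below.

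Promoter windows at 4 starts are shown first, because the results below turn on these genes. For Srebf1 they are the starts of a pair of transcripts whose estimated shares differed between lines, which was not tested. The others are Hmgcs1, the only member called higher in 3T3-L1 than in M27H4, and Hsd17b7, the member with the smallest p-value after Esrp2-as knockdown. Each window runs 5′ to 3′ on the gene's strand from 250 bases before to 50 bases after a RefSeq start in GRCm38.p6. Capitals mark the letters TCACNCCAC, a sterol regulatory element form, or CCAAT, the core bound by the SREBP partner NF-Y, on either strand, so that ATTGG is CCAAT read on the other strand.
Srebf1, upstream start (Srebf1-201), chr11:60220578-60220877, minus strand: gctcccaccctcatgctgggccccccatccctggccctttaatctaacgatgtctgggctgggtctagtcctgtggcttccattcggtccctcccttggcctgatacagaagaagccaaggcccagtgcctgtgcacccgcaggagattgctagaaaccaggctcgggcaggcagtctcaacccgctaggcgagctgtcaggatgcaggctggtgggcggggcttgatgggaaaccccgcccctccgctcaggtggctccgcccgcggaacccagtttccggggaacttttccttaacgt
Srebf1, downstream start (Srebf1-207), chr11:60210422-60210721, minus strand: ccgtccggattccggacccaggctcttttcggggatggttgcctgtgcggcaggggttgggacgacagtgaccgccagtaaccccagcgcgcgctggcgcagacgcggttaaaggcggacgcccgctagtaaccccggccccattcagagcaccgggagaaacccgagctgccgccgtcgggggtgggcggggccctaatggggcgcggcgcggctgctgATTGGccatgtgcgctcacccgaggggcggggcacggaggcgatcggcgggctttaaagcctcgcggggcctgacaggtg
Hmgcs1, chr13:119690101-119690400, plus strand: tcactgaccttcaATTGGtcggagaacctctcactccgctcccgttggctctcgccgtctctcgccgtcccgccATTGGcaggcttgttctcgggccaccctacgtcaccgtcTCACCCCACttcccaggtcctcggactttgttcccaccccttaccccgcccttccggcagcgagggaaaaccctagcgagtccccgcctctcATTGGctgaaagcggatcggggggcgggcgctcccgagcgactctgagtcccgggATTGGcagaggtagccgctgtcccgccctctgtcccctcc
Hsd17b7, chr1:169969156-169969455, minus strand: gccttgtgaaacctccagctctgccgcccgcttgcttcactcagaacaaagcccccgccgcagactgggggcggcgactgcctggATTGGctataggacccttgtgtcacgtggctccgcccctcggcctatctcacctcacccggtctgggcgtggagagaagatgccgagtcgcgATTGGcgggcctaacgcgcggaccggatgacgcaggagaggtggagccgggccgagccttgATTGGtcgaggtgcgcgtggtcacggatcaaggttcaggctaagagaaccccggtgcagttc
RefSeq windows were found for 27 of the 34 members. TCACNCCAC was present for 1 of these 27, Hmgcs1, against 1.44% of all 27025 genes with a window. CCAAT was present in at least 1 window for 23 of the 27, against 41.1% of all genes. The Hmgcs1 window held 4 CCAAT cores and the Hsd17b7 window 3, the downstream Srebf1 window held 1 and the upstream Srebf1 window none. A further Srebf1 window, not printed, lies upstream of both (chr11:60222532-60222831) and held 1. A match describes letters in the window and does not show binding.

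The plot of all members by replicate sets these genes out in the order of the pathway. Between genes, levels were compared per kilobase of exon. Scd2, a stearoyl-CoA desaturase, ranked 1 of 34 in all 6 groups, at 142 and 117 CPM per kilobase in 3T3-L1 overexpression and control, 185 and 228 in M27H4 overexpression and control, and 246 and 221.5 in M6 knockdown and control. Its paralog Scd1 ranked 2 in all M27H4 and M6 groups, at 175 to 199.5 CPM per kilobase, but 15 and 17 in 3T3-L1 overexpression and control, at 27.6 and 24.1. In 3T3-L1 control the next ranks were held by Acly, which makes cytosolic acetyl-CoA from citrate (79.6), Fdps, which makes farnesyl diphosphate (76.2), and Hmgcs1, the 3-hydroxy-3-methylglutaryl-CoA synthase (57.9). In M27H4 control, Elovl5, an elongase of polyunsaturated fatty acids (102), and Ebp, the sterol isomerase (100.4), followed Scd1. Acacb, the mitochondrial acetyl-CoA carboxylase, ranked 34 in every group, at 0.0383 to 1.08 CPM per kilobase. Scd1 and Scd2 are near copies of each other in the coding region, and reads could have been split between them by the counting.

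**Figure D1:**
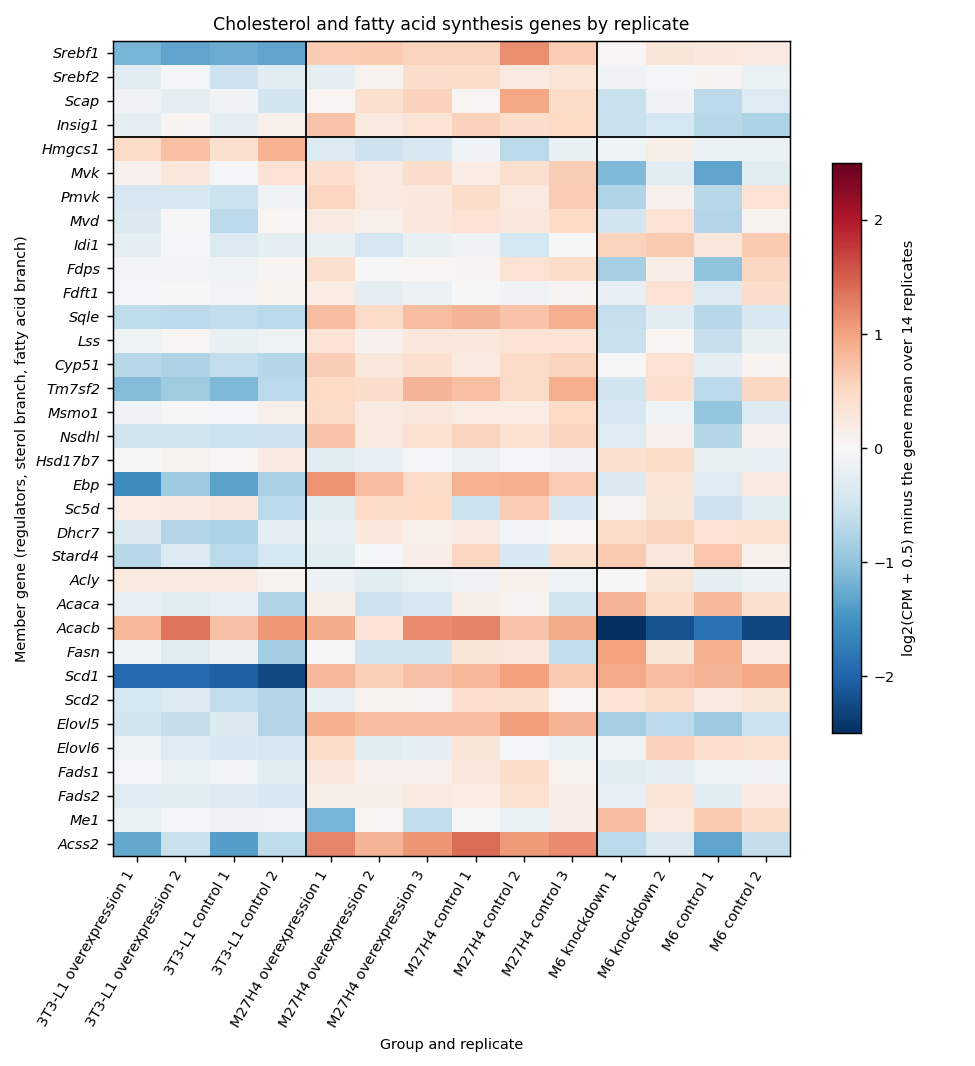
Level of each of the 34 members in each of the 14 replicates, as log2(CPM + 0.5) minus the gene's mean over all replicates (colour scale in log2 units). Rows follow the pathway with lines between the 4 regulators, 18 sterol and 12 fatty acid genes; Scd1 and Srebf1 are low in all 4 3T3-L1 columns and Acacb is low in all 4 M6 columns.

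The 3 lines were compared through their empty vector or control groups. These comparisons share groups, so they are not independent of each other. In 3T3-L1 control, 16 of the 34 members were lower and 1 was higher than in M27H4 control, in a comparison where 36.6% of 21237 genes were called, 18.9% higher and 17.8% lower (edgeR quasi-likelihood test, Benjamini-Hochberg adjusted p under 0.05). The lower members were all 4 regulators, 6 sterol genes and 6 fatty acid genes, and the median log2 fold change was -0.55 over the members against 0.02 over all genes tested. Against M6 control, 11 members were lower and 5 higher in 3T3-L1 control, where 39.4% of genes were called, 20.5% higher and 18.9% lower, with a median of -0.17 against 0.05 over all genes. In M27H4 control, 13 members were higher and 1 lower than in M6 control, where 30.2% of genes were called, 15.2% higher and 15% lower, with a median of 0.39 against 0.02 over all genes. A fit chosen after seeing the data used only M6 and M27H4 columns whose LR code held no other line. It left 1 M27H4 control replicate against 2 of M6. The 14 members called with all columns kept their direction in it. Log2 fold changes were 0.29 to 4.03 for the 13 called higher and -0.55 for Idi1. Its columns are also in the main fit, so the result is not separate evidence. All its M6 columns carried the same LR code and its M27H4 columns a different one, so line and code cannot be told apart there. In bulk samples fewer cells of a type and less RNA per cell cannot be told apart. Of the calls, 10 of 17, 3 of 16 and 5 of 14 held in every one of 13, 12 and 13 alternative settings, in the order of the comparisons above. One of those settings kept only control columns of the LR codes that all 3 lines share, which left 1 control replicate per line, so a call lost there rests on single samples assumed to vary like the treated groups.

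**Figure D2:**
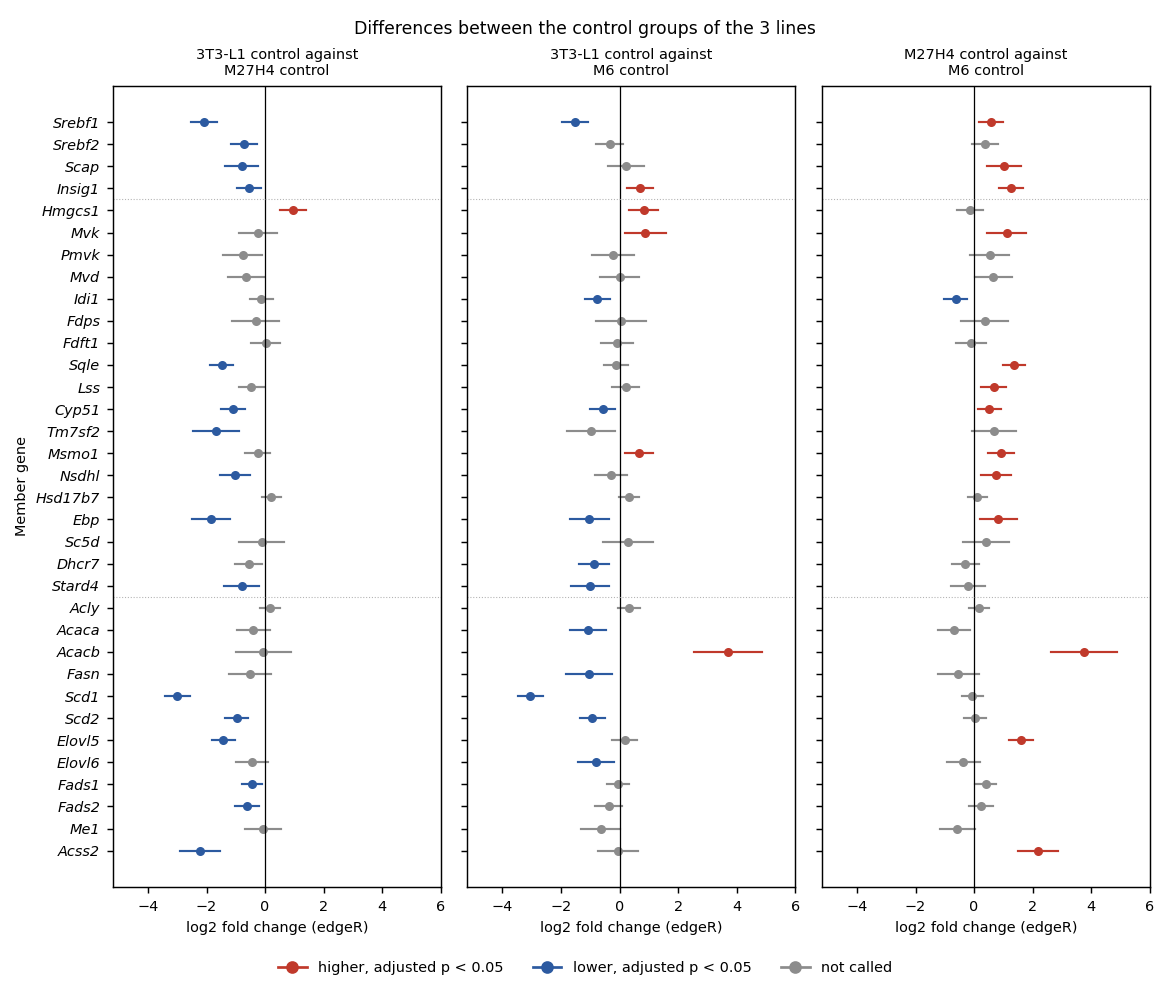
Log2 fold change of each member between control groups in 3 panels (3T3-L1 against M27H4, 3T3-L1 against M6, M27H4 against M6), with 95% intervals from the edgeR fit of 14 replicates. Red points were called higher and blue points lower in the line named first; Scd1 and Srebf1 are blue in both 3T3-L1 panels and Acacb is red in both panels against M6.

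Srebf1 encodes SREBP-1a and SREBP-1c from different first exons (ENSMUSG00000020538, chr11:60199089-60222581, minus strand). It was at 54.8 and 51.8 CPM in 3T3-L1 control, at 192, 289 and 201 CPM in M27H4 control and at 156 and 152 CPM in M6 control. Both 3T3-L1 values lay far below every value of the other lines. The log2 fold change was -2.09 ± 0.20 (SE) against M27H4 control, adjusted p = 3.79e-06, and -1.53 ± 0.21 against M6 control, adjusted p = 6.33e-05, and both calls held in every alternative setting. M27H4 was above M6 by 0.56 ± 0.19, adjusted p = 0.038, a call kept in 8 of 13 settings and lost, among others, without M27H4 control replicate 2, the replicate at 289 CPM (0.35, adjusted p = 0.145, within a range of 0.0202 to 0.145 over the 13 settings). It was also lost in the fit of single-line codes (0.29, adjusted p = 0.376).

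Insig1, the retention protein that is itself an SREBP target, was at 136 and 177 CPM in 3T3-L1 control, 241.5, 218 and 227 CPM in M27H4 control, and 99.2 and 92.5 CPM in M6 control. The 3 lines did not overlap, with M27H4 highest and M6 lowest. M27H4 exceeded M6 by 1.26 ± 0.19 on the log2 scale, adjusted p = 2.3e-04, in all 13 settings. The differences of 3T3-L1 were called at -0.55 against M27H4 (adjusted p = 0.0364) and 0.71 against M6 (adjusted p = 0.0142), but in only 4 of 13 and 8 of 12 settings. Srebf2, which encodes SREBP-2, was at 117 and 140 CPM in 3T3-L1 control, 230.1, 194.5 and 211 CPM in M27H4 control, and 176 and 149.6 CPM in M6 control. It was lower in 3T3-L1 than in M27H4 by -0.72 ± 0.20 on the log2 scale (adjusted p = 0.0133, called in 11 of 13 settings), and neither line differed from M6 past the threshold. Scap, the escort, was at 110.4 and 85 CPM in 3T3-L1 control, 121, 230 and 160 CPM in M27H4 control, and 74.6 and 92.9 CPM in M6 control. Its M27H4 values spread widely, and the call against M6 (1.02 ± 0.27, adjusted p = 0.0104) was lost without M6 control replicate 1 (0.87, adjusted p = 0.0796, the highest over the 13 settings, where the lowest was 7.81e-04) and in the fit of single-line codes (0.51, adjusted p = 0.221). It was also called lower in 3T3-L1 than in M27H4 (-0.80 ± 0.27, adjusted p = 0.031), in 8 of 13 settings.

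Among the sterol genes, Sqle had the smallest p-value in M27H4 against both other lines. It encodes the squalene epoxidase that commits squalene to sterols (ENSMUSG00000022351, chr15:59315077-59331192). It was at 172 and 164 CPM in 3T3-L1 control, 473, 432 and 496.5 CPM in M27H4 control, and 162 and 202 CPM in M6 control. M27H4 stood clear of both other lines, which overlapped each other. Sqle was 2.79-fold lower in 3T3-L1 than in M27H4 (log2 fold change -1.48 ± 0.18, adjusted p = 2.78e-05) and 2.57-fold higher in M27H4 than in M6 (1.36 ± 0.18, adjusted p = 6.05e-05).

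Hmgcs1 makes the 3-hydroxy-3-methylglutaryl-CoA of the mevalonate pathway (ENSMUSG00000093930, chr13:119690379-119708260). It was at 224 and 308 CPM in 3T3-L1 control, 158, 106 and 148 CPM in M27H4 control, and 151 and 151 CPM in M6 control. Both 3T3-L1 values lay above all values of the other lines. The gene was the only member called higher in 3T3-L1 than in M27H4 (0.95 ± 0.20, adjusted p = 0.00213, called in 13 of 13 settings), and it was singled out here after its values were seen. Against M6 it was higher by 0.82 ± 0.22 (adjusted p = 0.0104), a call lost without 3T3-L1 control replicate 2 (0.55, adjusted p = 0.135) and with only the columns of shared LR codes (0.57, adjusted p = 0.169, the highest over the settings, where the lowest was 0.00366).

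Several genes of later sterol steps were lower in 3T3-L1 than in M27H4. Ebp was at 52.6 and 75.4 CPM in 3T3-L1 control, 242.5, 245 and 208 CPM in M27H4 control, and 107 and 155 CPM in M6 control. The 3 lines did not overlap, with 3T3-L1 lowest. It was 3.62-fold lower in 3T3-L1 than in M27H4 (-1.86 ± 0.30, adjusted p = 3.14e-04). Cyp51, the lanosterol demethylase, was at 190.4 and 179 CPM in 3T3-L1 control, 345, 404 and 430 CPM in M27H4 control, and 245.5 and 304.5 CPM in M6 control, again without overlap. It was 2.13-fold lower in 3T3-L1 than in M27H4 (-1.09 ± 0.19, adjusted p = 4.72e-04). Tm7sf2, a sterol reductase, was at 5.75 and 8.07 CPM in 3T3-L1 control, 22.5, 18.5 and 24.9 CPM in M27H4 control, and 8.16 and 18.9 CPM in M6 control. Its 3T3-L1 values were 3.18-fold below M27H4 (-1.67 ± 0.36, adjusted p = 0.0026), while its M6 replicates spread over most of the range between the other lines. Nsdhl, which removes sterol C4 methyl groups, was lower in 3T3-L1 than in M27H4 by -1.04 ± 0.24 (adjusted p = 0.00354), called in 12 of 13 settings and not with only the columns of shared LR codes (-0.93, adjusted p = 0.0721, the highest over the settings, where the lowest was 9.21e-05).

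Other sterol genes separated the lines less firmly. Idi1, the isopentenyl diphosphate isomerase, was at 80.3 and 87.5 CPM in 3T3-L1 control, 96.7, 75.5 and 103.6 CPM in M27H4 control, and 124 and 160.1 CPM in M6 control, with M6 above both other lines. It was the only member called lower in M27H4 than in M6 (-0.63 ± 0.18, adjusted p = 0.017, called in 10 of 13 settings) and was lower in 3T3-L1 than in M6 (-0.76 ± 0.20, adjusted p = 0.00827, called in 10 of 12). Both Idi1 calls were lost without M6 control replicate 2, at -0.42 (adjusted p = 0.172) for M27H4 and -0.55 (adjusted p = 0.0772) for 3T3-L1, the highest over the settings of each comparison. The lowest were 0.00235 and 0.00118. Msmo1, which oxidises sterol C4 methyl groups, was at 302 and 341 CPM in 3T3-L1 control, 356.5, 355 and 441 CPM in M27H4 control, and 160.3 and 246 CPM in M6 control, the lowest line. Mvk, the mevalonate kinase, was at 54.8 and 73.1 CPM in 3T3-L1 control, 64.3, 75.2 and 86.5 CPM in M27H4 control, and 22.5 and 46.9 CPM in M6 control, again the lowest line. Their calls of M27H4 over M6 (Msmo1 0.92 ± 0.21, adjusted p = 0.00429; Mvk 1.12 ± 0.31, adjusted p = 0.0135) were lost with only the shared LR codes, where each arm is 1 replicate, at 0.51 (adjusted p = 0.26) and 0.64 (adjusted p = 0.307), the highest over their settings. With single-line codes they were 0.90 (adjusted p = 0.0493) for Msmo1 and 1.04 (adjusted p = 0.118) for Mvk. The Mvk call was also lost without M6 control replicate 1 (0.68, adjusted p = 0.11). Dhcr7, the last reductase of the pathway, was at 14.1 and 21.1 CPM in 3T3-L1 control and 31.8 and 32.2 CPM in M6 control, lower by -0.86 ± 0.24 (adjusted p = 0.0101), a call lost without 3T3-L1 control replicate 1 (-0.64, adjusted p = 0.0953, the highest over the settings, where the lowest was 0.00207). Stard4, a sterol transfer protein, was at 37.4 and 44.1 CPM in 3T3-L1 control, 86.8, 46 and 80 CPM in M27H4 control, and 98 and 65.4 CPM in M6 control, lowest in 3T3-L1. It was called lower there than in M27H4 (-0.80 ± 0.28, adjusted p = 0.0388) and 2.0-fold lower than in M6 (adjusted p = 0.0176), in 4 of 13 and 8 of 12 settings. Lss, the lanosterol synthase, was at 134, 142 and 142 CPM in M27H4 control and 75.5 and 99.1 CPM in M6 control (0.67 ± 0.20, adjusted p = 0.0184, called in 11 of 13 settings). Ebp and Cyp51 were also called lower in 3T3-L1 than in M6 (10 and 7 of 12 settings) and higher in M27H4 than in M6 (8 and 6 of 13), Nsdhl higher in M27H4 than in M6 (8 of 13), and Mvk and Msmo1 higher in 3T3-L1 than in M6 (8 and 7 of 12). No line difference was called for the sterol members Pmvk, Mvd, Fdps, Fdft1, Hsd17b7 and Sc5d.

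In the fatty acid branch the smallest p-values of 3T3-L1 against both other lines were those of Scd1, the desaturase that makes oleate from stearate (ENSMUSG00000037071, chr19:44394455-44407879, minus strand). It was at 127 and 109 CPM in 3T3-L1 control, 927.5, 1063 and 823.5 CPM in M27H4 control, and 939 and 1013 CPM in M6 control. The M27H4 and M6 values overlapped, and the 3T3-L1 values were far below both. Scd1 was 7.96-fold lower in 3T3-L1 than in M27H4 (-2.99 ± 0.19, adjusted p = 1.14e-07) and 8.28-fold lower than in M6 (-3.05 ± 0.20, adjusted p = 9.53e-08). Scd2 was at 661 and 612 CPM in 3T3-L1 control, 1357, 1335 and 1047 CPM in M27H4 control, and 1168 and 1252 CPM in M6 control. It too was lowest in 3T3-L1, but by 1.96-fold against M27H4 (-0.97 ± 0.18, adjusted p = 8.36e-04) and 1.9-fold against M6 (-0.93 ± 0.19, adjusted p = 0.00175). The second of these calls was lost with only the groups compared in the fit (-0.92, adjusted p = 0.055, the highest over the settings, where the lowest was 1.77e-06).

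Acacb gave the largest difference of M6 from the other lines (ENSMUSG00000042010, chr5:114146535-114250761). It was at 7.82 and 10.2 CPM in 3T3-L1 control, 11.4, 7.77 and 9.02 CPM in M27H4 control, and 0.89 and 0.536 CPM in M6 control. Both M6 values lay far below every value of the other lines, which overlapped each other. The log2 fold changes against M6 were 3.70 ± 0.54 for 3T3-L1 (adjusted p = 1.16e-04) and 3.76 ± 0.53 for M27H4 (adjusted p = 1.02e-04), in every setting. Acaca, the cytosolic acetyl-CoA carboxylase that feeds synthesis, had its highest values in M6, at 129.8 and 88.7 CPM in 3T3-L1 control, 166, 158 and 108 CPM in M27H4 control, and 263.5 and 197 CPM in M6 control. Its call in 3T3-L1 against M6 (-1.08 ± 0.29, adjusted p = 0.00929) was lost without M6 control replicate 1 (-0.84, adjusted p = 0.083), without 3T3-L1 control replicate 2 (-0.86, adjusted p = 0.108) and with only the shared LR codes (-0.54, adjusted p = 0.312, the highest over the settings, where the lowest was 9.91e-04). Fasn, the fatty acid synthase, was at 333 and 202 CPM in 3T3-L1 control, 454, 449.9 and 240.2 CPM in M27H4 control, and 681 and 424.5 CPM in M6 control. Its lines overlapped between 3T3-L1 and M27H4, and its call in 3T3-L1 against M6 (-1.05 ± 0.36, adjusted p = 0.0356) held in 7 of 12 settings.

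M27H4 stood apart in Elovl5 and Acss2. Elovl5 was at 150.2 and 116 CPM in 3T3-L1 control, 327, 398 and 347 CPM in M27H4 control, and 103 and 133 CPM in M6 control. It was 2.69-fold lower in 3T3-L1 than in M27H4 (-1.42 ± 0.19, adjusted p = 4.86e-05) and 3.03-fold higher in M27H4 than in M6 (1.60 ± 0.19, adjusted p = 2.16e-05). Acss2, which makes acetyl-CoA from acetate, was at 8.65 and 14.7 CPM in 3T3-L1 control, 61.5, 49.2 and 53.1 CPM in M27H4 control, and 9.03 and 15.1 CPM in M6 control. For both genes M27H4 stood clear of the other lines, which overlapped each other. Acss2 was 4.69-fold lower in 3T3-L1 than in M27H4 (-2.23 ± 0.31, adjusted p = 9.52e-05) and 4.52-fold higher in M27H4 than in M6 (2.17 ± 0.31, adjusted p = 1.27e-04), in every setting. Acly and Me1, the malic enzyme that supplies NADPH, were called in no line comparison. The desaturases Fads1 and Fads2 were called lower in 3T3-L1 than in M27H4 (-0.45 ± 0.16, adjusted p = 0.0435, and -0.62 ± 0.19, adjusted p = 0.0228), in 5 and 9 of 13 settings. Elovl6, the elongase that extends palmitate, was at 44.3 and 42.9 CPM in 3T3-L1 control and 77 and 75.3 CPM in M6 control (-0.81 ± 0.28, adjusted p = 0.0371), called in 7 of 12 settings.

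The Srebf1 difference was not spread evenly over its transcripts. Srebf1-201 begins at the upstream first exon (chr11:60220453-60220604) that corresponds to SREBP-1a, and Srebf1-207 at the downstream first exon (chr11:60210336-60210465) that corresponds to SREBP-1c, the windows printed above. The share of Srebf1 counts assigned to Srebf1-201 was 79.2% and 76.5% in 3T3-L1 control, 44.3%, 42.4% and 51.3% in M27H4 control, and 46.4% and 41.6% in M6 control. Both 3T3-L1 shares lay above all others, and the M27H4 and M6 shares overlapped. Srebf1-207 held 7.89% and 11.5% in 3T3-L1 control, 35.4%, 32.7% and 25.5% in M27H4 control, and 28.9% and 35.6% in M6 control. As transcript levels, Srebf1-207 averaged 5.15 ± 1.17 CPM (SD, n = 2) in 3T3-L1 control, 71.2 ± 21.7 CPM (n = 3) in M27H4 control and 49.6 ± 6.51 CPM (n = 2) in M6 control. Srebf1-201 averaged 41.5 ± 2.67, 103.5 ± 18.7 and 67.8 ± 6.36 CPM in the same 3 groups, so both transcripts were lowest in 3T3-L1 and the downstream one by the wider margin.

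**Figure D3:**
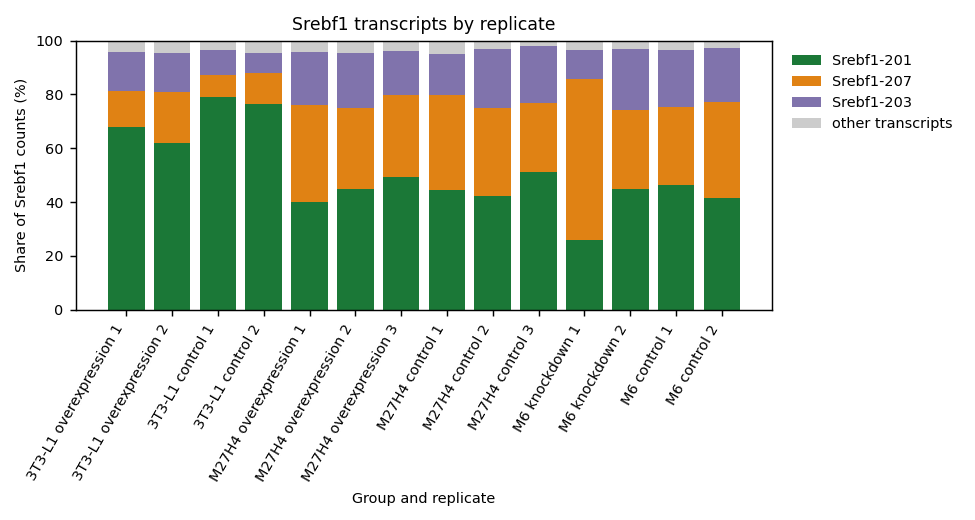
Share of Srebf1 counts (percent) assigned to Srebf1-201, Srebf1-207, Srebf1-203 and the other transcripts in each of the 14 replicates, as stacked bars from 0. Srebf1-201 takes 61.9% to 79.2% in the 4 3T3-L1 bars and 25.9% to 51.3% in the 10 others, with the lowest share in M6 knockdown replicate 1.

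In 3T3-L1 overexpression Srebf1-201 held 67.8% and 61.9% and Srebf1-207 13.5% and 19.1%, so neither overlapped the 3T3-L1 control shares. Srebf1-203, the other main transcript, held 14.45% and 14.49% against 9.52% and 7.31% in 3T3-L1 control. With 2 replicates per group such separation arises readily without any effect. In M27H4 overexpression Srebf1-201 held 40.1%, 45% and 49.2%, overlapping the M27H4 control shares. In M6 knockdown the replicates diverged, with Srebf1-201 at 25.9% and 44.9% and Srebf1-207 at 59.8% and 29.3%. For the gene total, Srebf1 differed by 0.04 ± 0.20 in 3T3-L1, -0.20 ± 0.17 in M27H4 and -0.08 ± 0.20 in M6 on the log2 scale (adjusted p = 1 in each). The shares are estimates from read coverage over overlapping exons, they were not tested, and columns of 1 replicate differed, with Srebf1-201 at 45.3%, 42.6% and 38.8% in those of M6 control replicate 2 and Srebf1-207 at 34.4% and 26.5% in those of M6 knockdown replicate 2.

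No member passed the threshold after any Esrp2-as treatment. In 3T3-L1 overexpression 0 of 34 were called by edgeR, where 0.00471% of genes were called, in M27H4 overexpression 0 of 34, where 0.00942% were called, and in M6 knockdown 0 of 34, where 0.137% were called, 0.122% higher and 0.0141% lower. At an unadjusted p under 0.05 the counts were 0, 0 and 1, limma voom called 0 in each, and DESeq2 called 0, 0 and 1. Over all genes DESeq2 called 12 of 18294 in 3T3-L1, 6 of 21177 in M27H4 and 235 of 18294 in M6. Few genes of any kind were called in these comparisons, so the 0 is close to the background. The 95% interval of the log2 fold change lay within 1 of 0 for 31 of 34 members in 3T3-L1, for 33 in M27H4 and for 30 in M6, so a 2-fold change in either direction lay outside the interval of those genes.

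**Figure D4:**
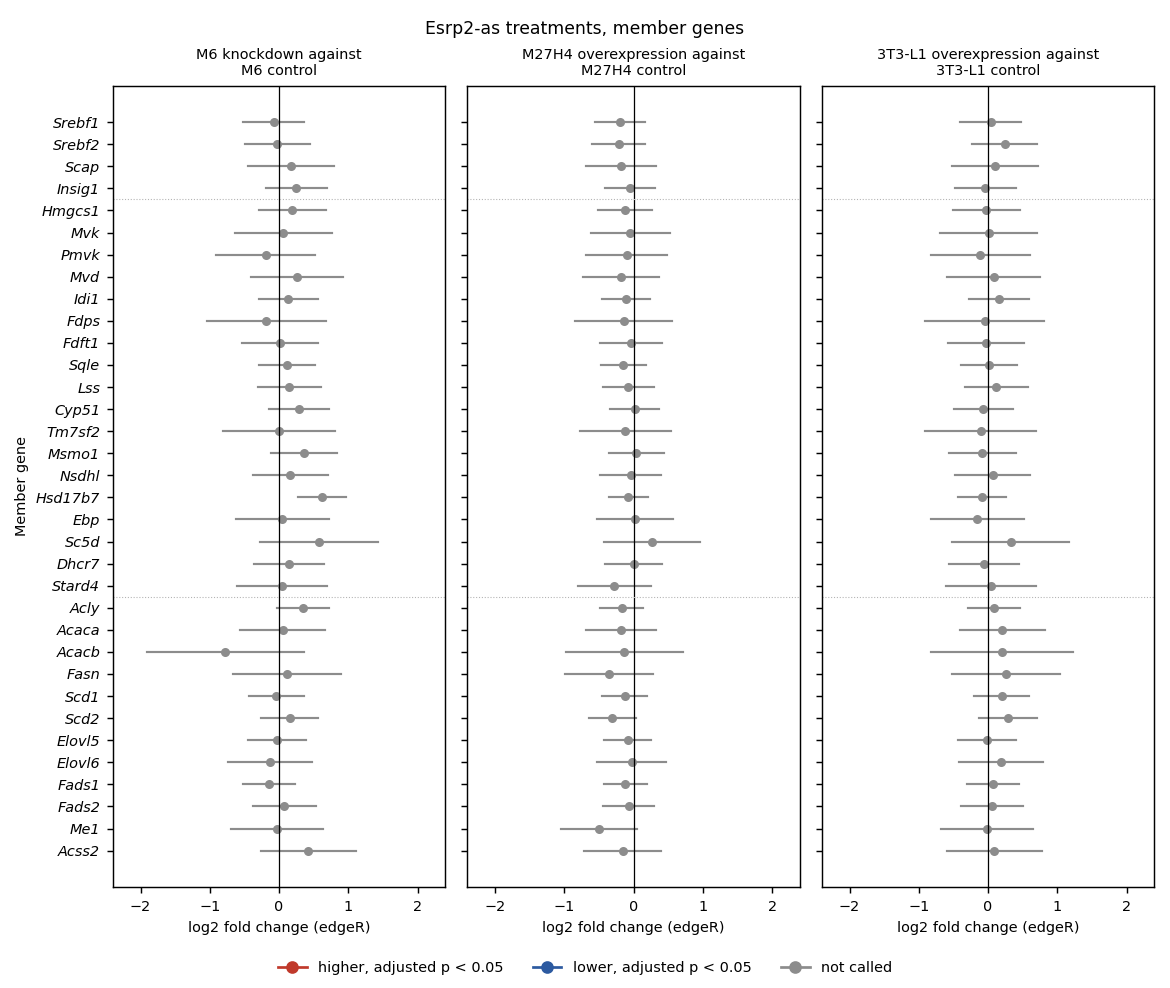
Log2 fold change of each member after Esrp2-as knockdown in M6 and Esrp2-as overexpression in M27H4 and 3T3-L1, each against the control of its line, with 95% intervals from the edgeR fit. No member was called; Hsd17b7 in M6 has its interval furthest from 0, at 0.28 to 0.97.

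In M6, Hsd17b7, a 3-ketosteroid reductase of the later sterol steps (ENSMUSG00000026675, chr1:169949535-169969241, minus strand), was at 62.3 and 65.1 CPM in knockdown against 41.5 and 41.1 CPM in control. The groups did not overlap and their replicates lay close together. The log2 fold change was 0.62 ± 0.16, with an unadjusted p of 0.00185 and an adjusted p of 0.234 over all genes. Within the LR code that all M6 replicates share, it was at 66.8 and 57.9 CPM of the column total in knockdown against 44.9 and 43.9 CPM in control (0.51 ± 0.16, adjusted p = 0.33). The adjusted p ran from 0.00203 by DESeq2 to 0.935 when the M6 groups were fitted alone, and the direction was positive in all 12 settings. It was called in 2 of the 12, by DESeq2 and with the replicate number as a block (adjusted p = 0.0427). Those 2 settings also called the most genes of any kind, 235 of 18294 and 293 of 21237, against 29 of 21237 in the main fit. Hsd17b7 did not differ past the threshold in the other lines, at 47.4 and 50 CPM in 3T3-L1 overexpression against 48.2 and 55.2 CPM in 3T3-L1 control, and at 39.1, 41.3 and 46 CPM in M27H4 overexpression against 43, 46 and 44.6 CPM in M27H4 control. Its M6 knockdown effect minus its M27H4 overexpression effect was 0.70 ± 0.21 (unadjusted p = 0.00472, adjusted p = 0.675), in a test where 0.0283% of genes were called.

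The other members with the smallest p-values in M6 knockdown were further from the threshold. Acly was at 379 and 465.5 CPM in knockdown against 324 and 341 CPM in control (0.34 ± 0.17, adjusted p = 0.869). Msmo1 was at 232 and 290.3 CPM in knockdown against 160.3 and 246 CPM in control, with overlap (0.36 ± 0.22, adjusted p = 0.96). Acacb was at 0.127 and 0.61 CPM in knockdown against 0.89 and 0.536 CPM in control, too low for a precise value (-0.77 ± 0.52, adjusted p = 0.991). Over the branches, 15 of 18 sterol members and 6 of 12 fatty acid members had a positive log2 fold change in M6 knockdown. Over all genes tested 9313 of 21237 were positive, and in the lists of related genes given below 16 of 22 and 18 of 25. The branch medians were 0.14 and 0.01, against -0.03 over all genes tested.

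In M27H4 overexpression, 30 of 34 members had a negative log2 fold change, including 12 of 12 in the fatty acid branch. Over all genes tested 11732 of 21237 were negative, as were 18 of 22 and 21 of 25 in the lists of related genes given below. The median was -0.12 over the members and -0.15 over the fatty acid branch, against -0.03 over all genes tested. Me1 was at 22.2, 51.8 and 32.7 CPM in overexpression against 49.8, 44.9 and 56.6 CPM in control (-0.50 ± 0.25, adjusted p = 1). Scd2 was at 878, 1086 and 1061 CPM in overexpression against 1357, 1335 and 1047 CPM in control (-0.31 ± 0.16, adjusted p = 1). The groups overlapped in both genes. Fasn (-0.36 ± 0.29) and Srebf2 (-0.22 ± 0.18) also had an adjusted p of 1. Fasn was at 364, 264 and 264 CPM in overexpression against 454, 449.9 and 240.2 CPM in control, and Srebf2 at 141, 177 and 228 CPM against 230.1, 194.5 and 211 CPM, with overlap in both. Taken by replicate number, 2, 1 and 7 of the 12 fatty acid members were higher in overexpression in replicates 1, 2 and 3, so the common sign did not hold in the third pair.

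In 3T3-L1 overexpression, 21 of 34 members had a positive log2 fold change, 10 of them among the 12 fatty acid genes. Over all genes tested 10530 of 21237 were positive, as were 11 of 22 and 14 of 25 in the lists of related genes given below. The median was 0.05 over the members and 0.14 over the fatty acid branch, against 0.00 over all genes tested. Scd2 was at 749.5 and 804 CPM in overexpression against 661 and 612 CPM in control, and Scd1 at 135 and 134.5 CPM against 127 and 109 CPM. Neither gene overlapped between the groups, and neither passed the test (0.29 ± 0.19 and 0.19 ± 0.18, adjusted p = 1). Srebf2 was at 139 and 164 CPM in overexpression against 117 and 140 CPM in control, which overlapped (0.24 ± 0.22, adjusted p = 1). Sc5d, the sterol C5 desaturase, was at 121 and 126 CPM in overexpression against 130.4 and 66.6 CPM in control (0.32 ± 0.39, adjusted p = 1), and its direction turned to -0.10 without 3T3-L1 control replicate 2. The difference between the overexpression effects of M27H4 and 3T3-L1 was itself tested. The M27H4 effect minus the 3T3-L1 effect was negative for 12 of 12 fatty acid genes with a median of -0.29. Over all genes tested it was negative for 11009 of 21237, with a median of -0.02. In the lists of related genes given below it was negative for 16 of 22 and 17 of 25. By edgeR 0 of 34 members were called (1 at an unadjusted p under 0.05, Scd2 at -0.59 ± 0.25, adjusted p = 1), where 0.00471% of genes were called.

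The M6 replicates spread widely in the sterol branch. Fdps was at 183 and 366 CPM in replicates 1 and 2 of M6 knockdown, and at 161 and 463 CPM in replicates 1 and 2 of M6 control. In the columns with the LR code that all M6 replicates share, it was at 196 and 347 CPM of the column total in knockdown and at 175 and 398 CPM in control, so the gap was also present within that code. In each M6 group 10 of 34 members differed by more than 1.5-fold between the highest and lowest replicate. The counts were 7 and 6 in M27H4 overexpression and control and 2 and 4 in 3T3-L1 overexpression and control. A group of 3, as in M27H4, tends to span a wider range than a group of 2. The share over all genes was not computed. Same-numbered M6 replicates deviated together over 10675 genes (correlation 0.688), so shared replicate gaps were not confined to the members. The mean sterol branch level, relative to the control mean of the line, was -0.05 and 0.39 in M6 knockdown replicates 1 and 2 and -0.26 and 0.26 in M6 control replicates 1 and 2 on the log2 scale. The fatty acid branch was at -0.03 and 0.07 in M6 knockdown and -0.01 and 0.01 in M6 control, so its mean level did not show the gap. Within it, Fasn ran the other way, at 744 and 454 CPM in knockdown and 681 and 424.5 CPM in control. In M27H4 against M6, fewer members were called without M6 control replicate 1 and more without replicate 2. Either fit left 1 M6 control replicate, and fewer genes of any kind were called in both. How far the sterol spread contributes to the call counts was not tested.

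**Figure D5:**
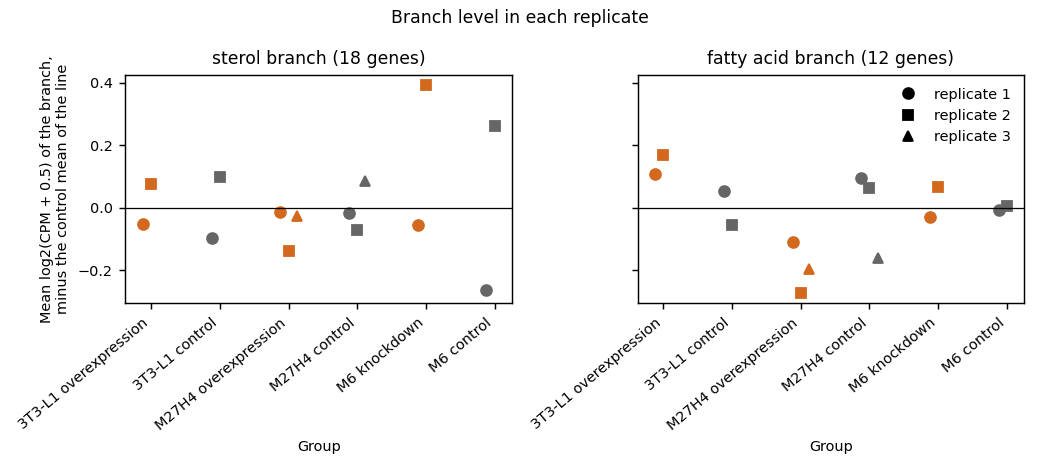
Mean log2(CPM + 0.5) of the 18 sterol genes (left) and 12 fatty acid genes (right) in each replicate, minus the mean of the line's control replicates; orange marks Esrp2-as overexpression or knockdown, grey marks control, and the shape gives the replicate number. The sterol level spreads from -0.26 to 0.39 over the 4 M6 replicates and from -0.14 to 0.10 over the 10 others.

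Genes around these pathways were tested in the same fit, in lists of 22 genes of sterol regulation, trafficking and export and 26 of fatty acid supply and esterification. In 3T3-L1 control against M27H4 control 6 of 22 were higher and 7 lower in the first list, and 4 of 25 tested were higher and 12 lower in the second, where 36.6% of all genes were called. Against M6 control, 4 were higher and 6 lower in 3T3-L1 in the first list, and 3 higher and 10 lower in the second, where 39.4% of all genes were called. In M27H4 against M6, 8 were higher and 4 lower in the first list, and 5 higher and 5 lower in the second, where 30.2% of all genes were called. Elovl7, an elongase of very long chains, was at 0.974 and 1.11 CPM in 3T3-L1 control, 25.4, 29.1 and 30.8 CPM in M27H4 control, and 120.3 and 112 CPM in M6 control, a stepwise order without overlap (-4.77 ± 0.20 for 3T3-L1 against M27H4, -2.03 ± 0.15 for M27H4 against M6, adjusted p = 6.55e-09 and 5.23e-07). The long-chain acyl-CoA synthetases differed in order. Acsl4 was at 87.2 and 90.7 CPM in 3T3-L1 control, 786, 809 and 793.5 CPM in M27H4 control, and 304 and 286 CPM in M6 control, while Acsl1 was at 45.7 and 43.2, 115, 115 and 99.1, and 15.8 and 17.1 CPM in those groups. Lipa, the lysosomal acid lipase that frees cholesterol from lipoprotein esters, was at 150.1 and 161 CPM in 3T3-L1 control, 66.5, 56.9 and 71.2 CPM in M27H4 control, and 12.9 and 13.6 CPM in M6 control, higher in 3T3-L1 than in M6 by 3.55 ± 0.22 (adjusted p = 6.9e-08). Abcg1, a sterol exporter, was at 1.12 and 0.832 CPM in 3T3-L1 control, 0.0488, 0.115 and 0.106 CPM in M27H4 control, and 10.1 and 8.52 CPM in M6 control (-6.58 ± 0.54 for M27H4 against M6, adjusted p = 1.06e-06). Mylip, a ubiquitin ligase induced by the liver X receptors, was at 20.2 and 28.5 CPM in 3T3-L1 control and 4.79, 7.07 and 5.29 CPM in M27H4 control (2.09 ± 0.26, adjusted p = 3.96e-05). After the treatments edgeR, DESeq2 and limma voom each called 0 of these genes in each line, and at an unadjusted p under 0.05 edgeR counted 0 in 3T3-L1, 0 in M27H4, and 2 of the first list and 1 of the second in M6. Over all 21237 genes those counts were 201 in 3T3-L1, 358 in M27H4 and 1331 in M6.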

How the data were processed

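RNA was measured in 21 columns from 14 replicates of 6 groups. Per the submitters' processing notes, reads were handled with cutadapt, HISAT2, StringTie and edgeR on mm10 (GRCm38). Versions, the strand setting and the annotation release are not given in the sources used here. The deposited tables of genes and of transcripts are expected counts that the authors derived from StringTie's coverage, written as whole numbers and used unchanged. The deposited CPM tables were not used; 1 column of the gene values matched no sample.

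Columns labelled as technical replicates were summed. Symbols and coordinates came from GENCODE M21 (GRCm38), where 48058 of 48440 gene identifiers matched. One edgeR 4.0.16 quasi-likelihood fit (R 4.3.3, TMM, filterByExpr) of all 6 groups tested 21237 genes with a common biological coefficient of variation of 0.323 and 8 residual degrees of freedom among samples. P-values were Benjamini-Hochberg adjusted over all genes, with a threshold of 0.05. Log levels used CPM + 0.5. The members and lists were chosen with earlier results of these data known. Named members were, per comparison, up to 8 called ones with the smallest p, or 4 where fewer than 4 were called, plus up to 3 called pathway genes; other called members are given with their setting counts. Alternatives were RLE factors, no filter, DESeq2 1.42.0, limma 3.58.1 voom, only the groups compared, a replicate block, technical replicate 1 only, only columns of shared LR codes (1 control replicate per line between lines), and leaving out each replicate. A fit of columns whose LR code held a single line was added after seeing the data. Same-numbered M27H4 replicates deviated together (correlation 0.592, 0.218 and 0.4 over 10675 genes). They also share LR codes, so pairing and code cannot be told apart there. The main fit held group only, so its tests were not paired, and the replicate block was an alternative setting. Sequences are RefSeq's, GRCm38.p6. Intervals at 95% cover the spread of the fit, and more deeply sequenced replicates have less counting error.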

Additional observations from a re-analysis of the deposited data

How the results depend on the processing

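No member was called after any treatment under most settings, with 2 exceptions in M6 knockdown against M6 control. DESeq2 called 1 member and the replicate block called 1, in both cases Hsd17b7 (0.64, adjusted p = 0.00203, and 0.62, adjusted p = 0.0427). These 2 settings called 235 of 18294 and 293 of 21237 genes of any kind, against 29 of 21237 in the main fit. M6 and 3T3-L1 have 2 pairs each, too few to tell pairing (correlation of same-numbered replicates 0.688 and 0.512). Same-numbered replicates of 3T3-L1, like those of M27H4, also share LR codes. The block changed no call of a member in either overexpression contrast. For 3T3-L1 against M27H4 control, 10 members were called with only the columns of shared LR codes, against 17. For 3T3-L1 against M6 control the count was 7 with only the groups compared and 8 with shared LR codes, against 16, and 7 to 13 with 1 replicate left out, falling to 10 without 3T3-L1 control replicate 1 and to 7 without replicate 2. For M27H4 against M6 control it was 8 with shared LR codes, against 14, and 7 to 16 with 1 replicate left out, 7 being without M6 control replicate 1. In the fit of single-line LR codes, chosen after seeing the data, line and LR code cannot be told apart. The shared-code fit holds 1 control replicate per line, and it called fewer genes of any kind in each line comparison. The leave-one-out fits of these comparisons also called fewer genes of any kind. With only the groups compared, 7101 of 19826 genes were called for 3T3-L1 against M6, against 8368 of 21237 in the main fit. How far the lower member counts follow from fewer calls of any kind was not tested. Sc5d in 3T3-L1 overexpression ran from -0.10 (reversed, without 3T3-L1 control replicate 2) to 0.89 with 1 replicate left out; the cause was not tested. Of 853 gene values under alternatives other than the single-line codes, 736 kept their direction and side of the threshold, 114 lost the call, 2 gained it and 1 reversed. Where 1 replicate was left out of a group of 2, the lone sample was assumed to vary like the other groups. Fewer samples enter the shared-code and leave-one-out fits, and Acacb in M6, under 1 CPM, is limited by depth.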
